A study of Mus musculus with 24 samples.

Results

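Wnt genes were followed in C2C12 cells, an established mouse myoblast line. The set holds 10 genes of the 24043 in the deposited gene table and was chosen by symbol: the ligands Wnt4, Wnt5a and Wnt9a, the secreted antagonists Sfrp1, Sfrp2, Dkk2 and Dkk3, the nuclear factors Lef1 and Tcf7, and the feedback target Axin2. All 10 have a row in the table. The unit is FPKM, a fragment count scaled by transcript length and library size, so levels can be set beside each other between genes per length.

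RNA was sequenced in 8 libraries, replicates A and B of each of 4 groups, which the series describes as biological replicates. Cells were kept either in growth medium, which is DMEM with 10% fetal bovine serum, or in differentiation medium, which is DMEM with 2% horse serum and an insulin, transferrin and selenium supplement. Each medium was used at 21% oxygen (normoxia) or 2% oxygen (hypoxia). The design asks how oxygen bears on gene expression in either medium. No genetic change, drug or transgene is named for any group, all groups are the same line, and neither the length of the oxygen exposure nor the number of days in differentiation medium is given in the labels. The H3K27me3 and input libraries of the series were not analysed here.

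Wnt ligands are secreted lipid-modified proteins that bind frizzled receptors and the LRP5 and LRP6 co-receptors. In the canonical branch this stops the destruction complex, which contains Axin proteins and Gsk3b, from marking beta-catenin for breakdown, and beta-catenin then enters the nucleus and switches on targets with TCF and LEF factors. Secreted frizzled-related proteins bind Wnt ligands outside the cell, while Dickkopf proteins such as Dkk2 bind the co-receptors. In muscle, Wnt signals from neighbouring tissues help to start the myogenic programme of the embryo, and canonical signalling takes part in the step from dividing precursor to differentiated fibre.

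The libraries were checked against their labels before the Wnt genes were read. The summed level of 3 oxygen-responsive genes (Car9, Ankrd37 and Slc2a1) was 96.5 to 149.0 FPKM at 21% oxygen and 1288 to 1657 FPKM at 2%. The summed level of 6 myotube genes reached 7628 and 7646 FPKM in normoxic differentiation medium, 25.2 and 32.9 FPKM in normoxic growth medium, and 3.43 to 17.4 FPKM in the 4 hypoxic libraries, so hypoxic cells in differentiation medium lacked the myotube pattern seen in this medium at 21% oxygen. The myoblast genes were lower in hypoxia as well: 453.1 to 950.0 FPKM at 21% oxygen and 84.1 to 129.7 FPKM at 2%. Of 4 leukocyte genes, Cd68 alone was above 1 FPKM and carried the rise of their sum to 25.8 and 42.9 FPKM in hypoxic differentiation medium, against 1.84 to 3.59 FPKM elsewhere, while Emr1 was at 0 in all 8 libraries and Ptprc in 7. Of the 6 osteoblast genes, Bglap and Bglap2 carried most of a sum of 233.4 and 270.9 FPKM in normoxic differentiation medium, against 8.36 to 27.2 FPKM elsewhere, with Sp7, Alpl and Ibsp at or under 0.23 FPKM throughout. Their part in the Wnt results was not tested, and in bulk RNA fewer cells of a type and less RNA per cell cannot be told apart. In differentiation medium the oxygen levels also differ in the myotube pattern. For a change with hypoxia in that medium, oxygen and the missing myotube pattern therefore cannot be told apart. In growth medium the myoblast sum was 535.4 and 453.1 FPKM at 21% oxygen and 125.3 and 129.7 FPKM at 2%. The sum of 15 proliferation genes was 468.6 and 477.5 FPKM against 308.7 and 280.1 FPKM there. For a change with hypoxia in growth medium, oxygen and these differences in cell state cannot be told apart either.

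The 2 libraries of hypoxic differentiation medium stand apart from each other. Replicate B exceeded replicate A for 15 of 15 proliferation genes, with a median ratio of 5.59 (range 1.73 to 7.54), while the median ratio in the other 3 groups lay between 0.916 and 1.01. The sum of these genes was 190.2 FPKM in A and 611.7 FPKM in B. It was 147.1 and 153.4 FPKM in normoxic differentiation medium, 468.6 and 477.5 FPKM in normoxic growth medium, and 308.7 and 280.1 FPKM in hypoxic growth medium. Replicate B thus lay above every growth medium library, and what this means for the Wnt genes was not tested. Of the 10 Wnt genes 9 were higher in B, with a median ratio of 1.60, from 0.79 for Wnt5a to 2.51 for Wnt4. The median of all genes tested was itself higher in B, by 0.092 on the log2(FPKM + 1) scale. Against that background Wnt9a and Wnt4 stand out on this scale, with a larger difference in 4.28% and 5.51% of genes. The share was 20.9% for Sfrp1, 25.2% for Axin2, 39.3% for Sfrp2 and 55.1% for Dkk2, for example. The scale flattens differences of genes under 1 FPKM. By the ratio of B to A, Axin2 at 2.17 differed as much as Wnt9a at 2.16, and Lef1 stood at 1.81. Between these replicates 613 genes of 12389 differed by more than 2-fold, against 56 to 71 in the other groups. The changes of tested Wnt genes and of named pathway genes that rest on this group are therefore given also without replicate A and without replicate B, in that order, which assumes that the remaining library varies like the other groups. Counts by role, medians of the pathway list and the changes of genes below the filter are given for all 8 libraries alone.

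**Figure D1:**
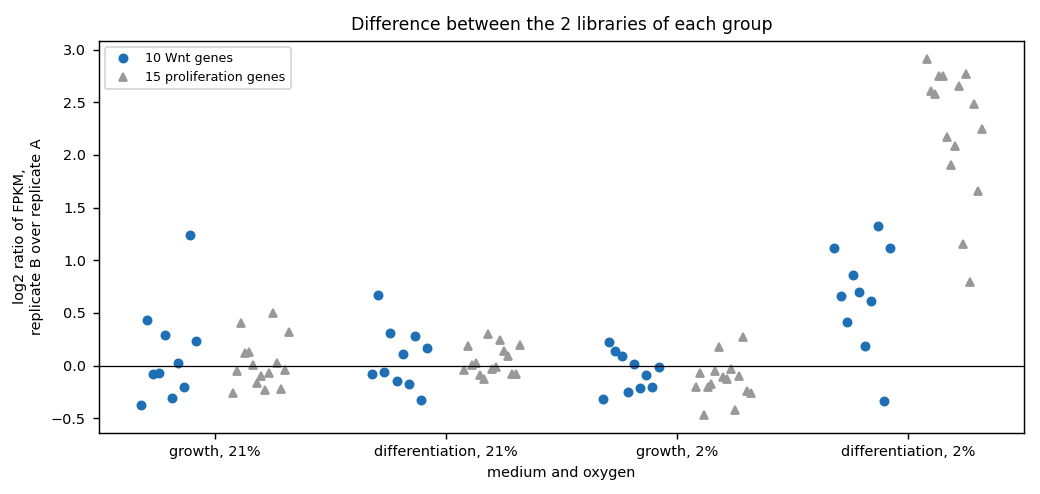
Each point is 1 gene, placed by group (x axis) and by the log2 ratio of its FPKM in replicate B over replicate A (y axis); circles are the 10 Wnt genes and triangles the 15 proliferation genes. In hypoxic differentiation medium 15 of 15 proliferation genes and 9 of 10 Wnt genes lie above 0, while in hypoxic growth medium 2 of 15 proliferation genes and 4 of 10 Wnt genes do.

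Levels differed widely between the Wnt genes. Sfrp2 reached the highest group mean, 51.4 ± 7.74 FPKM in normoxic growth medium (SD, n = 2, as for every ± on a group mean). Wnt9a, Dkk3 and Tcf7 had highest group means of 13.5, 12.3 and 8.33 FPKM, and Sfrp1, Wnt4, Lef1 and Dkk2 of 3.74, 2.15, 1.81 and 1.42 FPKM. Axin2 and Wnt5a stayed below 1 FPKM in every library, with highest group means of 0.817 and 0.161 FPKM. Tests were run on the 12389 genes whose mean reached 1 FPKM in any group, among them 8 of the 10 Wnt genes. Changes are differences of log2(FPKM + 1) with the standard error of the fit, and understate the change of genes near or below 1 FPKM. A gene is said to rise or fall where the adjusted p of limma's two-sided moderated test, corrected over all genes tested, was under 0.05. A change on differentiation means differentiation medium against growth medium at the same oxygen level. At 2% oxygen it names the medium alone, because the cells there lacked the myotube pattern.

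**Figure D2:**
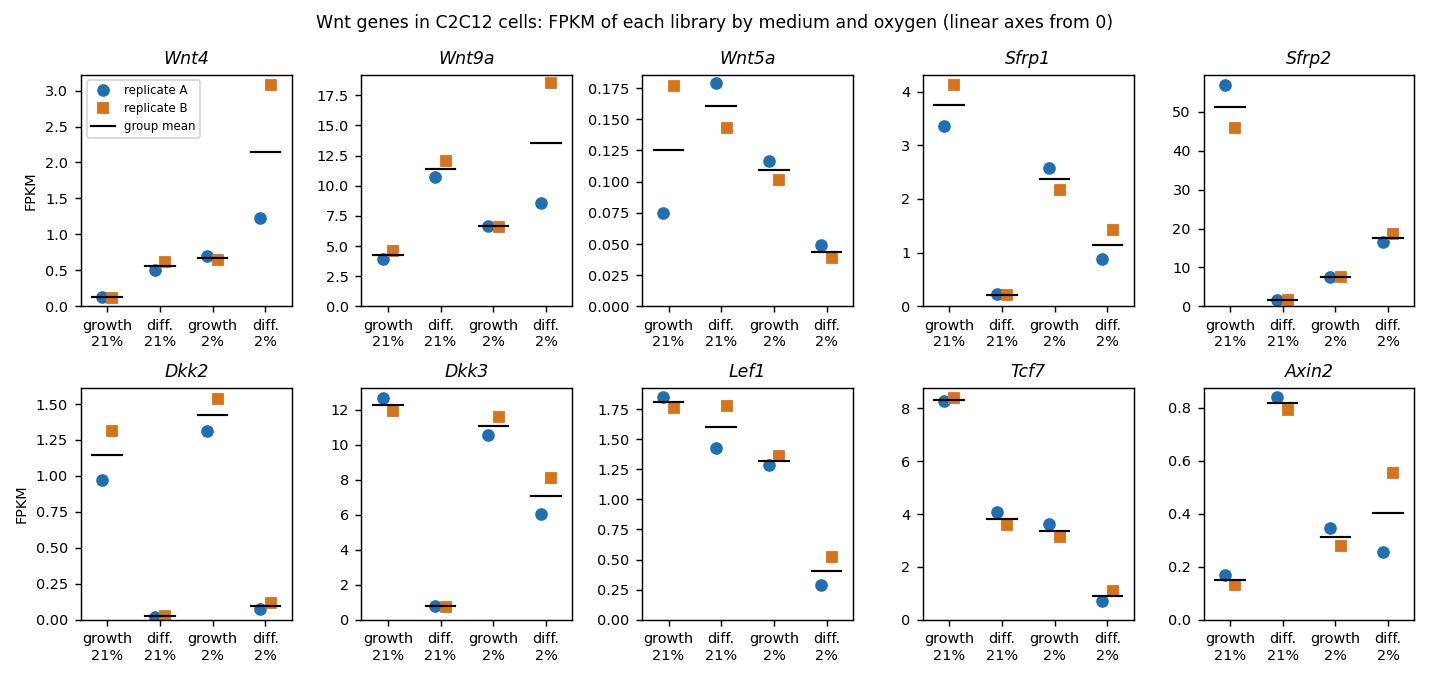
Each panel is 1 Wnt gene and plots the FPKM of each library on a linear axis from 0 (y axis) by medium and oxygen (x axis, with diff. for differentiation medium); circles are replicate A, squares replicate B and lines group means. Sfrp1, Sfrp2 and Dkk3 are lowest in differentiation medium at 21% oxygen, Tcf7 and Lef1 are lowest in differentiation medium at 2%, and the 2 libraries of that last group lie far apart for Wnt4 and Wnt9a.

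Of the 3 ligands in the set, Wnt9a, best known from joint formation, was the most abundant. Its level was 3.90 and 4.58 FPKM (replicates A and B) in normoxic growth medium, 10.7 and 12.1 FPKM in normoxic differentiation medium, 6.66 and 6.61 FPKM in hypoxic growth medium, and 8.54 and 18.5 FPKM in hypoxic differentiation medium. Growth medium at 21% oxygen was lowest and growth medium at 2% next, while the 2 differentiation groups overlapped because the hypoxic replicates fell on either side of the normoxic ones. Wnt9a rose 2.68-fold on differentiation at 21% oxygen, a change of 1.24 ± 0.30 (adjusted p = 0.00994), and this call was lost without normoxic growth replicate A (adjusted p = 0.0592) or without normoxic differentiation replicate B (adjusted p = 0.0668). At 2% oxygen its change on differentiation was 0.84 ± 0.30 (adjusted p = 0.0659), and it was 1.35 (adjusted p = 0.000601) without replicate A and 0.32 (adjusted p = 0.0763) without replicate B of hypoxic differentiation medium. Hypoxia in differentiation medium gave 0.14 ± 0.30 (adjusted p = 0.701), and here the direction depended on the library: 0.66 (adjusted p = 0.00369) without replicate A and -0.37 (adjusted p = 0.033) without replicate B. In growth medium the hypoxic change was 0.55 ± 0.30 (adjusted p = 0.193), with both hypoxic libraries above both normoxic ones, and it passed the threshold without replicate B or without replicate A of hypoxic differentiation medium (adjusted p = 0.00457 and 0.00521).

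The promoter of Wnt9a is shown because it is the only window of the 11 examined that holds both a hypoxia response core and a muscle E-box. Promoter sequences came from the RefSeq table for GRCm38.p6, which has entries for 7 of the 10 genes with 11 start sites in all, and the 250 bases before each start were searched on both strands. The search covered 3 short motifs. The hypoxia response core (ACGTG or GCGTG), the letters shared by sites of the HIF factors, was in 38.6% of all 32851 promoter windows of this length and in 5 of the 11 Wnt windows, 1 each of Wnt4, Wnt9a, Sfrp2, Dkk2 and Lef1. The E-box CAGCTG, a form favoured by myogenic factors, was in 13% of all windows and in 3 Wnt windows, 1 each of Wnt9a, Lef1 and Tcf7. The TCF and LEF core (CTTTG followed by AA, AT, TA or TT) was in 14.8% of all windows and in 1 Wnt window, a Lef1 start. A match is a description of letters and not a site of binding. The Wnt9a window, chr11:59306680-59306929 on the plus strand, is given 5′ to 3′ up to the base before the start, with matches in capitals. Its first hypoxia core lies at bases 228 to 223 before the start, where CACGTG matches on both strands and the 2 matches overlap, its second at 111 to 107 and its E-box at 74 to 69.
Wnt9a: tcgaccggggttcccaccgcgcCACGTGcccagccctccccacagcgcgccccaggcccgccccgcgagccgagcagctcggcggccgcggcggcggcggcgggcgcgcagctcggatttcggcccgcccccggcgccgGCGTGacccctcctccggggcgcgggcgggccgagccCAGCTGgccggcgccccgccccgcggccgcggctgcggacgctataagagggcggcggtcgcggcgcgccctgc

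Wnt4, a ligand known from kidney tubule formation, was the other ligand of the set to reach 1 FPKM in a group. It measured 0.137 and 0.119 FPKM in normoxic growth medium, 0.506 and 0.615 FPKM in normoxic differentiation medium, 0.695 and 0.651 FPKM in hypoxic growth medium, and 1.23 and 3.07 FPKM in hypoxic differentiation medium. No groups overlapped in that ascending order, and the middle pair lay close together. The ratio of group means was 4.38 for differentiation and 5.26 for hypoxia from the normoxic growth level, but with every library under 1 FPKM the changes on the log2(FPKM + 1) scale were 0.47 ± 0.25 (adjusted p = 0.147) and 0.57 ± 0.25 (adjusted p = 0.118). Both passed the threshold with a pseudocount of 0.1 FPKM, at 1.53 (adjusted p = 0.013) and 1.76 (adjusted p = 0.0129), and both passed it without either hypoxic differentiation library. Wnt4 rose on differentiation at 2% oxygen by 0.85 ± 0.25 (adjusted p = 0.0371), with 1.28 (adjusted p = 0.000322) without replicate A and 0.41 (adjusted p = 0.0163) without replicate B of that group. That call was lost without any 1 of the 6 other libraries (adjusted p from 0.0655 to 0.142). It rose with hypoxia in differentiation medium by 0.95 ± 0.25 (adjusted p = 0.015), and by 1.39 (adjusted p = 4.85e-05) and 0.51 (adjusted p = 0.00365) without replicate A and B. The same call was lost without normoxic differentiation replicate A (adjusted p = 0.0778) or B (adjusted p = 0.0597).

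Wnt5a, the ligand most often tied to signalling without beta-catenin, was barely detected. Its libraries read 0.0747 and 0.176 FPKM in normoxic growth medium, 0.179 and 0.143 FPKM in normoxic differentiation medium, 0.117 and 0.101 FPKM in hypoxic growth medium, and 0.0488 and 0.0386 FPKM in hypoxic differentiation medium. The last group was lowest, and normoxic growth medium overlapped both normoxic differentiation and hypoxic growth medium, which did not overlap each other. These levels stand for 0.442 to 2.88 fragments per kilobase of transcript in a library, so they rest on few fragments. Wnt5a did not reach the filter; with no filter its change with hypoxia in differentiation medium was -0.15 (adjusted p = 0.0318) and its other changes had adjusted p of 0.153 to 0.84.

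Of the 8 tested Wnt genes, the antagonists Sfrp2, Dkk3 and Sfrp1 had the largest changes on differentiation at 21% oxygen on the log2(FPKM + 1) scale, which flattens the change of the scarcer Dkk2. Sfrp2, a secreted frizzled-related protein, measured 56.9 and 45.9 FPKM in normoxic growth medium, 1.58 and 1.71 FPKM in normoxic differentiation medium, 7.46 and 7.53 FPKM in hypoxic growth medium, and 16.5 and 18.7 FPKM in hypoxic differentiation medium. No 2 groups overlapped, and each oxygen level had the opposite order of media. At 21% oxygen Sfrp2 was 31.2-fold lower in differentiation medium, a change of -4.30 ± 0.12 (adjusted p = 8.53e-07). At 2% oxygen it was 2.35-fold higher there, a change of 1.13 ± 0.12 (adjusted p = 0.00115). Seen by medium, hypoxia came with a 6.85-fold lower level in growth medium, a change of -2.62 ± 0.12 (adjusted p = 4.60e-05), and a 10.7-fold higher level in differentiation medium, a change of 2.81 ± 0.12 (adjusted p = 4.25e-06). The test of the difference itself, the interaction of medium and oxygen, gave 5.43 ± 0.18 (adjusted p = 3.15e-06). Without replicate A or B of hypoxic differentiation medium the interaction was 5.52 or 5.34, the change on differentiation at 2% oxygen 1.21 or 1.04, and the change with hypoxia in differentiation medium 2.90 or 2.73.

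The Sfrp2 promoter is shown because this gene had the largest interaction of the 8 tested Wnt genes. The window, chr3:83766071-83766320 on the plus strand of GRCm38.p6, has 1 hypoxia response core (capitals), 151 to 147 bases before the start, and neither of the other motifs.
Sfrp2: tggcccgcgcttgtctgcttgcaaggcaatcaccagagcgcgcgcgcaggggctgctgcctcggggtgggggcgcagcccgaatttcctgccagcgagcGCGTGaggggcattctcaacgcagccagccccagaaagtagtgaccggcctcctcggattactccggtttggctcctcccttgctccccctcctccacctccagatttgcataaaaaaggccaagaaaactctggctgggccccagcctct

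Sfrp1, a second secreted frizzled-related protein, measured 3.36 and 4.12 FPKM in normoxic growth medium, 0.227 and 0.205 FPKM in normoxic differentiation medium, 2.58 and 2.16 FPKM in hypoxic growth medium, and 0.878 and 1.42 FPKM in hypoxic differentiation medium. No groups overlapped, and growth medium was above differentiation medium at both oxygen levels. Sfrp1 fell 17.3-fold on differentiation at 21% oxygen (-1.96 ± 0.15, adjusted p = 5.70e-05) and 2.06-fold at 2% (-0.66 ± 0.15, adjusted p = 0.0161), and the interaction was 1.30 ± 0.22 (adjusted p = 0.00281; 1.48 and 1.12 without hypoxic differentiation replicate A and B). The fall at 2% oxygen was lost without hypoxic growth replicate A (adjusted p = 0.0961) or B (adjusted p = 0.0522), and was -0.47 and -0.84 without hypoxic differentiation replicate A and B. With hypoxia, Sfrp1 rose 5.32-fold in differentiation medium (0.81 ± 0.15, adjusted p = 0.00336), and that change was 0.99 and 0.63 without replicate A and B. In growth medium it fell 1.58-fold (-0.49 ± 0.15, adjusted p = 0.0424), a call lost in 11 of 16 alternative settings, where the adjusted p reached 0.196, among them the removal of any 1 of the 6 libraries outside hypoxic differentiation medium.

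Dkk3, a divergent Dickkopf family member whose link to the LRP co-receptors is less clear than that of its relatives, measured 12.7 and 11.9 FPKM in normoxic growth medium, 0.78 and 0.75 FPKM in normoxic differentiation medium, 10.5 and 11.6 FPKM in hypoxic growth medium, and 6.06 and 8.10 FPKM in hypoxic differentiation medium. Its low level was in normoxic differentiation medium, and the 2 growth groups were neighbours whose libraries lay close together. Dkk3 fell 16.1-fold on differentiation at 21% oxygen (-2.91 ± 0.14, adjusted p = 6.61e-06) and 1.56-fold at 2% (-0.59 ± 0.14, adjusted p = 0.0163), with an interaction of 2.33 ± 0.20 (adjusted p = 0.000159; 2.51 and 2.14 without hypoxic differentiation replicate A and B). The fall at 2% was lost without hypoxic growth replicate A (adjusted p = 0.0612) or B (adjusted p = 0.104), and was -0.41 and -0.77 without hypoxic differentiation replicate A and B. With hypoxia in differentiation medium Dkk3 was 9.25-fold higher (2.18 ± 0.14, adjusted p = 2.11e-05), or higher by 2.37 and 2.00 on the log2 scale without replicate A and B. In growth medium the hypoxic change was -0.14 ± 0.14 (adjusted p = 0.443) and turned to 0.015 under upper-quartile scaling.

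Dkk2, an antagonist that binds the LRP co-receptors, measured 0.974 and 1.31 FPKM in normoxic growth medium, 0.018 and 0.0287 FPKM in normoxic differentiation medium, 1.31 and 1.54 FPKM in hypoxic growth medium, and 0.0738 and 0.117 FPKM in hypoxic differentiation medium. It was present in growth medium and near 0 in differentiation medium at either oxygen level, and the 2 growth groups overlapped. Its values fall within 0.03 steps of whole multiples of a common step, which read as 55 and 96, 1 and 2, 95 and 105, and 6 and 6 fragments in the same order. Scaled for depth, the pooled steps gave 48.6-fold more Dkk2 in normoxic growth than in normoxic differentiation medium (95% exact interval 16.3 to 238.3) and 15.7-fold more in hypoxic growth than in hypoxic differentiation medium (8.80 to 30.9). These intervals cover counting error only and take 1 step as 1 fragment. The fitted changes on differentiation were -1.06 ± 0.11 (adjusted p = 0.000176) at 21% oxygen and -1.15 ± 0.11 (adjusted p = 0.000707) at 2%, and the latter was -1.12 and -1.17 without hypoxic differentiation replicate A and B. With hypoxia the changes were 0.18 ± 0.11 (adjusted p = 0.223) in growth medium and 0.10 ± 0.11 (adjusted p = 0.452; 0.13 and 0.069 without replicate A and B) in differentiation medium, where 12 against 3 pooled steps gave a ratio of 3.77 (1.02 to 20.8). The interaction was -0.08 ± 0.15 (adjusted p = 0.667; -0.055 and -0.11 without replicate A and B). The pseudocount of 1 FPKM lies far above the differentiation levels of this gene, so the fit could hardly show a change with hypoxia there.

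The Dkk2 promoter is shown because Dkk2 had the largest ratio of group means between media at 21% oxygen among the 10 genes, on few fragments. The window, chr3:132085042-132085291 on the plus strand of GRCm38.p6, has its match (capitals) 111 to 107 bases before the start.
Dkk2: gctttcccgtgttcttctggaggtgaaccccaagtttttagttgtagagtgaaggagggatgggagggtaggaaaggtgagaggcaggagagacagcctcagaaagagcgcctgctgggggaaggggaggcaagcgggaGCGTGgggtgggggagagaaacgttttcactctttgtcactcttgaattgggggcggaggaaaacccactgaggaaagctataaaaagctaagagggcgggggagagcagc

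Both nuclear factors were lowest in hypoxic differentiation medium. Tcf7, a partner of beta-catenin on DNA that also has short repressive forms, measured 8.26 and 8.39 FPKM in normoxic growth medium, 4.06 and 3.59 FPKM in normoxic differentiation medium, 3.62 and 3.12 FPKM in hypoxic growth medium, and 0.704 and 1.08 FPKM in hypoxic differentiation medium. The highest and lowest groups stood clear, and the 2 groups between them overlapped. Tcf7 fell in all 4 comparisons: by 0.95 ± 0.13 on the log2 scale on differentiation at 21% oxygen (adjusted p = 0.00078), by 1.21 ± 0.13 at 2% (adjusted p = 0.00112), by 1.10 ± 0.13 with hypoxia in growth medium (adjusted p = 0.00113) and by 1.36 ± 0.13 with hypoxia in differentiation medium (adjusted p = 0.000154). As ratios of group means these falls were 2.18-fold, 3.78-fold, 2.47-fold and 4.29-fold. Without hypoxic differentiation replicate A and B the fall at 2% oxygen was by 1.07 and by 1.36, and the hypoxic fall in differentiation medium was by 1.21 and by 1.50. The interaction was -0.26 ± 0.19 (adjusted p = 0.28; -0.12 and -0.40 without replicate A and B) and passed the threshold only under median-of-ratios scaling among the 15 alternatives, at -0.52 (adjusted p = 0.0375).

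Lef1, the related factor first described in lymphocytes, measured 1.85 and 1.76 FPKM in normoxic growth medium, 1.43 and 1.77 FPKM in normoxic differentiation medium, 1.28 and 1.36 FPKM in hypoxic growth medium, and 0.287 and 0.519 FPKM in hypoxic differentiation medium. The 2 normoxic groups overlapped and hypoxic differentiation medium was lowest. At 21% oxygen the change on differentiation was -0.11 ± 0.12 (adjusted p = 0.433; 0.062 under median-of-ratios scaling), while at 2% Lef1 fell 3.28-fold (-0.73 ± 0.12, adjusted p = 0.00425). With hypoxia in differentiation medium Lef1 was 3.97-fold lower (-0.89 ± 0.12, adjusted p = 0.000664), and in growth medium its change was -0.27 ± 0.12 (adjusted p = 0.112). Without hypoxic differentiation replicate A and B, the change at 2% oxygen was -0.61 and -0.85 and that with hypoxia -0.77 and -1.01. The interaction was -0.62 ± 0.17 (adjusted p = 0.0205; -0.50 and -0.74 without hypoxic differentiation replicate A and B), a call lost without normoxic growth replicate B, normoxic differentiation replicate B or either hypoxic growth library (adjusted p from 0.0556 to 0.0681).

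Axin2, a scaffold of the destruction complex that is itself switched on by beta-catenin and is often read as a gauge of the pathway, measured 0.168 and 0.13 FPKM in normoxic growth medium, 0.84 and 0.794 FPKM in normoxic differentiation medium, 0.346 and 0.278 FPKM in hypoxic growth medium, and 0.255 and 0.554 FPKM in hypoxic differentiation medium. Normoxic differentiation medium was highest, 5.48-fold above normoxic growth medium, and the 2 hypoxic groups overlapped. The gene did not reach the filter, and its levels stand for 2.12 to 12.3 fragments per kilobase in a library. With no filter, Axin2 rose on differentiation at 21% oxygen (0.66, adjusted p = 0.00245), fell with hypoxia in differentiation medium (-0.38, adjusted p = 0.0219), and had a change of 0.09 (adjusted p = 0.565) on differentiation at 2% oxygen and of 0.19 (adjusted p = 0.222) with hypoxia in growth medium. Its interaction there was -0.57 (adjusted p = 0.0225). The Axin2 window is shown as the promoter of the classical target in the set; these 250 bases, chr11:108920099-108920348 on the plus strand of GRCm38.p6, held none of the 3 motifs and therefore have no capitals, which says nothing of other parts of the gene.
Axin2: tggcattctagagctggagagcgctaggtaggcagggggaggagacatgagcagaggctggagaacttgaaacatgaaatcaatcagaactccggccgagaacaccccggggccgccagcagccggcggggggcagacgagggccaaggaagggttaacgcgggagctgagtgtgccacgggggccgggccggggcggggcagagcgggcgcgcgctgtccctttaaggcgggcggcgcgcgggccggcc

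Counted together, 6 of the 8 tested Wnt genes changed on differentiation at 21% oxygen, 1 higher (Wnt9a) and 5 lower (Sfrp1, Sfrp2, Dkk2, Dkk3 and Tcf7). Of all 12389 genes, 66.5% passed the same test, 25.5% higher and 41% lower, so the count of changed Wnt genes is near the background. The libraries of the 2 groups did not overlap for 8 of the 10 Wnt genes and for 87% of the genes tested. The median change was -1.01 for the 8 Wnt genes and -0.20 for all genes. On differentiation at 2% oxygen 7 of the 8 changed, 2 higher (Wnt4 and Sfrp2) and 5 lower (Sfrp1, Dkk2, Dkk3, Lef1 and Tcf7), against a background of 40.9%, with 23.3% higher and 17.6% lower. The medians were -0.62 and 0.07, and the groups did not overlap for 9 of the 10 Wnt genes and 70.3% of the genes tested. Without replicate A and B of hypoxic differentiation medium the median of the Wnt genes was -0.44 and -0.81. That of all genes was 0.13 and 0.0003. When either hypoxic growth library was left out the number passing fell, for the Wnt genes and for all genes alike. The 2 differentiation comparisons share no library, though both take their spread from the fit of all 8 libraries. Sfrp2 changed in opposite directions in these 2 comparisons.

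With hypoxia in growth medium 3 of the 8 changed, all lower (Sfrp1, Sfrp2 and Tcf7), against a background of 41.4%, with 13.5% higher and 28% lower, and medians of -0.21 and -0.14. The groups did not overlap for 8 of the 10 Wnt genes and 77.2% of the genes tested. Leaving out replicate A or B of hypoxic differentiation medium left the changes as they were, at 0.57 for Wnt4, 0.55 for Wnt9a and -0.27 for Lef1. It altered the spread of the fit, and the number passing rose for the Wnt genes and for all genes alike. In differentiation medium 6 of the 8 changed with hypoxia, 4 higher (Wnt4, Sfrp1, Sfrp2 and Dkk3) and 2 lower (Lef1 and Tcf7), against 65.2%, with 37.5% higher and 27.7% lower, and medians of 0.48 and 0.15. The groups did not overlap for 9 of the 10 Wnt genes and 83.1% of the genes tested. Without replicate A or without replicate B of hypoxic differentiation medium the median of the Wnt genes was 0.82 or 0.29. That of all genes was 0.21 or 0.07, and Wnt9a changed in opposite directions, by 0.66 or -0.37. The interaction passed for 4 of the 8, positive for Sfrp1, Sfrp2 and Dkk3 and negative for Lef1, against 54.1%, with 35.4% positive and 18.7% negative, and medians of 0.15 and 0.27. Without replicate A and B of hypoxic differentiation medium the interaction was 0.82 and -0.056 for Wnt4, and 0.11 and -0.92 for Wnt9a. The median interaction of the Wnt genes was 0.46 without replicate A and -0.083 without replicate B, so its sign rests on 1 library. Each comparison of 2 groups shares a group with 2 others, and the interaction uses all 4 groups. The calls are therefore not independent of each other. Median-of-ratios scaling moved the median of all genes from -0.20 to 0.03 on differentiation at 21% oxygen, from 0.15 to -0.03 with hypoxia in differentiation medium and from 0.27 to -0.01 for the interaction, and the higher share of all calls from 38.4% to 53.6%, from 57.5% to 46.5% and from 65.5% to 47.3%. In growth medium the median went from -0.14 to 0 and the higher share from 32.6% to 49.3% under upper-quartile scaling.

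**Figure D3:**
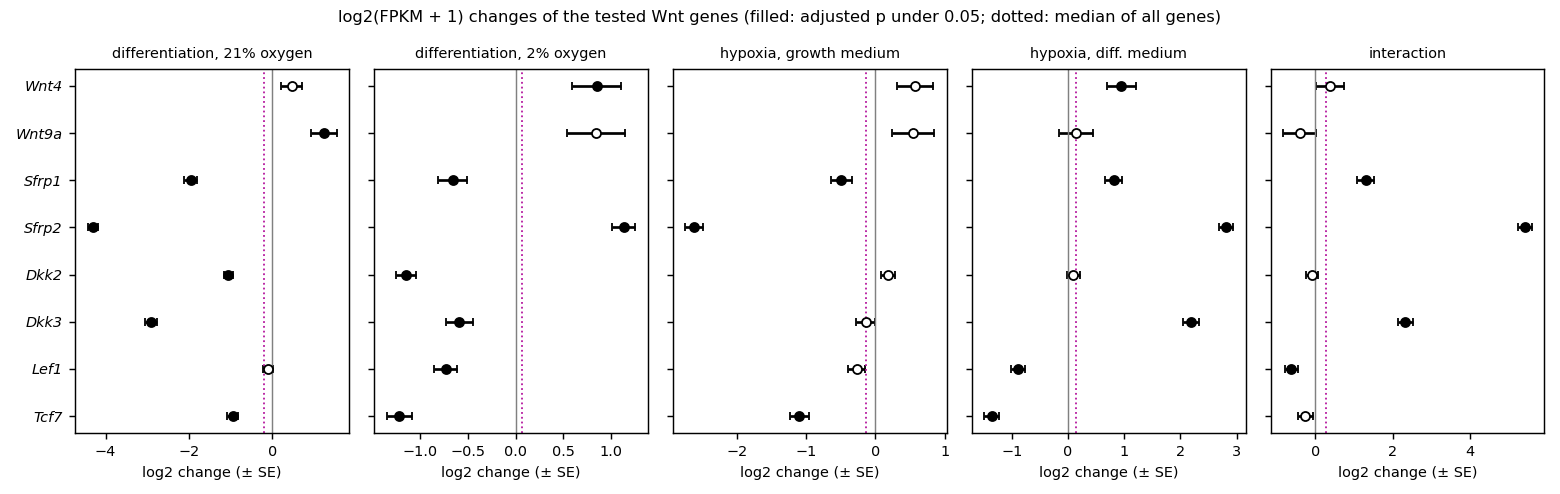
Each panel is 1 comparison and gives the change in log2(FPKM + 1) of the 8 tested Wnt genes with its standard error (x axis, with its own range in each panel); filled points have an adjusted p under 0.05 and the dotted line is the median of all genes tested. Sfrp2 and Dkk3 are lowest on differentiation at 21% oxygen and highest with hypoxia in differentiation medium and in the interaction. Lef1 and Tcf7 lie below 0 with hypoxia in differentiation medium, and Wnt9a, Dkk2, Lef1 and Tcf7 do in the interaction.

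Across the 8 libraries some Wnt genes ran close together. On the log2(FPKM + 1) scale Pearson's r was 0.93 for Sfrp1 with Dkk3, 0.93 for Lef1 with Tcf7, 0.87 for Sfrp1 with Dkk2 and 0.83 for Wnt4 with Wnt9a, and Axin2 ran opposite to Dkk3 at -0.89. The points are 4 pairs of replicates from 4 conditions and share library and depth, so these values describe the pattern over conditions. Among 7510 genes of at least 10 FPKM in their highest group, the 2 most like each tested Wnt gene were Myo5a and Apobec3 for Sfrp1 (both 0.996), C1s1 (0.994) and Arhgap1 (0.993) for Sfrp2, Plxna3 (0.99) and Net1 (0.989) for Dkk2, and Evc (0.999) and Cpe (0.998) for Dkk3. For the nuclear factors they were Smim3 (0.985) and Tap2 (0.983) for Lef1, and Id3 (0.993) and Cplx2 (0.992) for Tcf7. The ligands had Gle1 (0.976) and Bag2 (0.974) for Wnt4, and Gtf2h1 (0.986) and Cd80 (0.972) for Wnt9a.

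The rest of the pathway was read from a list of 108 further genes in the table, of which 70 were tested. On differentiation at 21% oxygen 11 were higher and 42 lower, with a median of -0.56. At 2% oxygen 7 were higher and 20 lower, with a median of -0.14. With hypoxia 8 were higher and 27 lower in growth medium (median -0.28), and 25 higher and 21 lower in differentiation medium (median 0.10). The interaction was positive for 34 and negative for 13 (median 0.53). As shares of the 70, these counts are 75.7%, 38.6%, 50%, 65.7% and 67.1%, beside the backgrounds above. The counts by role below stand beside the same backgrounds and are given without other scalings. Of all genes tested, 25.5% were higher and 41% lower on differentiation at 21% oxygen, and 23.3% and 17.6% at 2%. With hypoxia in differentiation medium 37.5% were higher and 27.7% lower. Median-of-ratios scaling gave 15 higher and 31 lower on differentiation at 21% oxygen and 23 positive and 17 negative for the interaction, and upper-quartile scaling 14 higher and 25 lower with hypoxia in growth medium. On differentiation at 2% oxygen the count rose without either hypoxic differentiation library and fell without either hypoxic growth library. The share of all genes passing moved in the same directions.

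**Figure D4:**
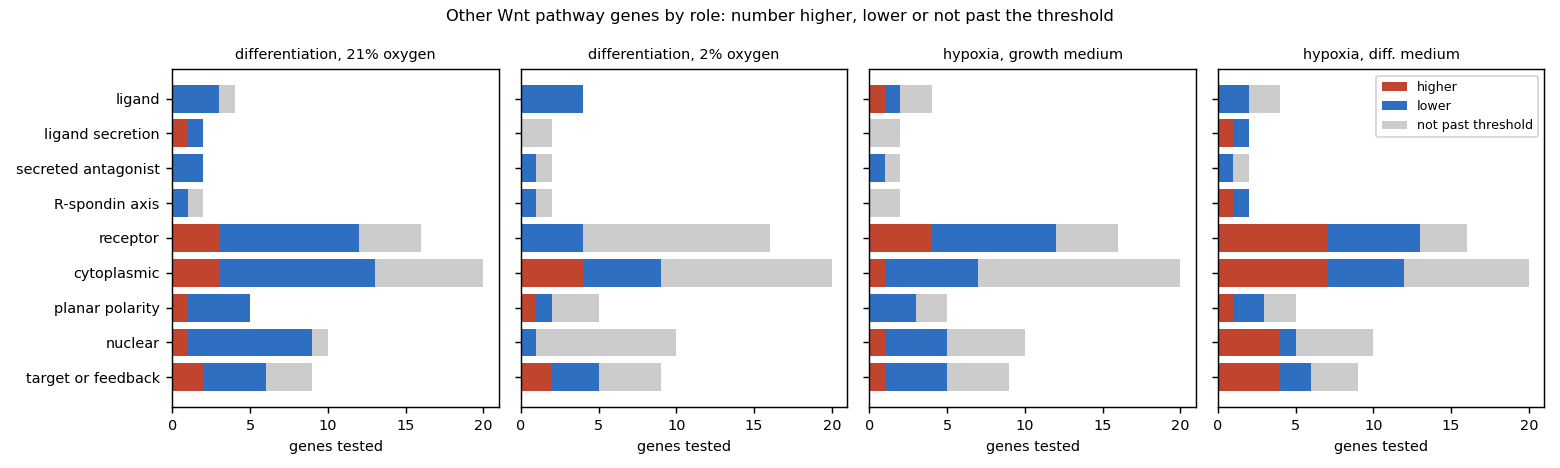
Bars count the tested pathway genes outside the 10 by role (y axis) and by outcome (x axis, number of genes) in 4 comparisons: red for higher, blue for lower and grey for not past the threshold. The nuclear factors show 8 of 10 lower on differentiation at 21% oxygen, 1 of 10 lower at 2%, and 4 of 10 higher with hypoxia in differentiation medium. The shares of all genes tested were 41% lower, 17.6% lower and 37.5% higher in the same order.

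Of the 4 other tested ligands 3 fell on differentiation at 21% oxygen and 4 at 2%. The most abundant was Wnt10b, a canonical ligand known for holding back fat cell formation, at 27.5 and 30.6 FPKM in normoxic growth medium, 3.34 and 3.53 FPKM in normoxic differentiation medium, 20.9 and 22.3 FPKM in hypoxic growth medium, and 3.43 and 5.89 FPKM in hypoxic differentiation medium. It fell by 2.76 ± 0.20 and by 2.03 ± 0.20 on the log2 scale at 21% and 2% oxygen (adjusted p = 3.86e-05 and 0.00076; the latter by 1.71 and by 2.35 without replicate A and B), and all 4 differentiation libraries lay below all 4 growth libraries. Of the 2 genes that prepare and carry ligands, Porcn, which attaches their lipid, rose by 2.03 ± 0.22 on differentiation at 21% oxygen (adjusted p = 0.000224) and fell by 2.49 ± 0.22 with hypoxia in differentiation medium (adjusted p = 8.96e-05; by 2.12 and by 2.85 without replicate A and B). Wls, which carries ligands to the cell surface, had a mean of 162.4 FPKM over all libraries.

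Among 2 further secreted antagonists, both fell on differentiation at 21% oxygen and 1 at 2%. Sfrp4, the more abundant of them, measured 1.96 and 2.00 FPKM in normoxic growth medium, 1.30 and 1.26 FPKM in normoxic differentiation medium, 1.22 and 1.72 FPKM in hypoxic growth medium, and 0.166 and 0.351 FPKM in hypoxic differentiation medium. It was lowest in hypoxic differentiation medium, where Sfrp1, Sfrp2 and Dkk3 were above their normoxic differentiation level.

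Of 16 tested receptors and co-receptors 3 rose and 9 fell on differentiation at 21% oxygen, and none rose and 4 fell at 2%. Fzd4 rose (1.51 ± 0.20, adjusted p = 0.000572) and Fzd1 fell (-2.24 ± 0.09, adjusted p = 3.63e-06) at 21% oxygen, and both had an interaction past the threshold, of -2.40 ± 0.28 (adjusted p = 0.000598) and 2.12 ± 0.13 (adjusted p = 4.50e-05). Without hypoxic differentiation replicate A and B the interactions were -2.67 and -2.14 for Fzd4, and 2.04 and 2.21 for Fzd1. Fzd7, a frizzled known from muscle stem cells, rose on differentiation at 21% oxygen (0.58 ± 0.10, adjusted p = 0.00251) and with hypoxia in growth medium (1.04 ± 0.10, adjusted p = 0.000526), and fell on differentiation at 2% (-0.48 ± 0.10, adjusted p = 0.0114; -0.59 and -0.38 without hypoxic differentiation replicate A and B). That last call was lost without hypoxic growth replicate A (adjusted p = 0.0748) or B (adjusted p = 0.0602). Lrp6 fell on differentiation at 21% oxygen (-0.63 ± 0.13, adjusted p = 0.00432), and Lrp5 rose with hypoxia in growth medium (1.03 ± 0.13, adjusted p = 0.00113). Kremen1, a Dickkopf receptor and the most abundant of this group at a mean of 71.7 FPKM, rose with hypoxia in differentiation medium (1.77 ± 0.14, adjusted p = 4.81e-05; 1.56 and 1.97 without replicate A and B).

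Of 20 cytoplasmic genes 3 rose and 10 fell on differentiation at 21% oxygen, and 4 rose and 5 fell at 2%. Ctnnb1, which encodes beta-catenin, had the highest mean of the list, 202.9 FPKM, and fell at 21% (-0.50 ± 0.07, adjusted p = 0.000544) and rose at 2% (0.42 ± 0.07, adjusted p = 0.00346; 0.43 and 0.42 without replicate A and B). Gsk3b rose at 21% oxygen (1.33 ± 0.15, adjusted p = 0.000311), and Dvl2, a dishevelled protein that relays the receptor signal, rose with hypoxia in differentiation medium (1.70 ± 0.14, adjusted p = 5.73e-05; 1.87 and 1.53 without replicate A and B). Among the 5 planar polarity genes 1 rose and 4 fell at 21% oxygen. Daam2 fell with hypoxia in growth medium (-2.23 ± 0.18, adjusted p = 0.000269) and rose on differentiation at 2% oxygen (1.69 ± 0.18, adjusted p = 0.00109; 1.41 and 1.97 without replicate A and B), and Prickle1 fell in both (-1.62 ± 0.15, adjusted p = 0.000363, and -1.29 ± 0.15, adjusted p = 0.00121; the latter -1.09 and -1.49 without replicate A and B). Daam1 had an interaction of -1.23 ± 0.27 (adjusted p = 0.00844; -0.95 and -1.50 without replicate A and B). Of the 2 R-spondin axis genes 1 fell on differentiation at each oxygen level, and Lgr4, a receptor for R-spondins, had a mean of 5.24 FPKM.

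Of the 10 nuclear genes outside the set, 8 fell and 1 rose on differentiation at 21% oxygen, and 4 rose and 1 fell with hypoxia in differentiation medium, where Tcf7 and Lef1 fell. Tcf7l1, the family member best known as a repressor, fell at 21% oxygen (-2.43 ± 0.13, adjusted p = 1.15e-05), rose with hypoxia in differentiation medium (2.30 ± 0.13, adjusted p = 1.30e-05; 2.21 and 2.38 without replicate A and B) and had an interaction of 2.41 ± 0.19 (adjusted p = 0.000112; 2.33 and 2.495 without them). Its libraries read 41.9 and 34.0 FPKM in normoxic growth medium, 6.67 and 5.69 FPKM in normoxic differentiation medium, and 32.3 to 36.5 FPKM in the 4 hypoxic libraries. The co-repressor gene Tle2 fell at 21% oxygen (-3.56 ± 0.11, adjusted p = 9.96e-07) and with hypoxia in growth medium (-1.45 ± 0.11, adjusted p = 0.000202), with an interaction of 2.61 ± 0.15 (adjusted p = 3.70e-05; 2.60 and 2.61 without replicate A and B). Bcl9l, a beta-catenin cofactor, rose with hypoxia in growth medium (1.15 ± 0.15, adjusted p = 0.00147) and in differentiation medium (1.86 ± 0.15, adjusted p = 5.91e-05; 1.65 and 2.07 without replicate A and B). Aes, a shortened relative of Tle2, was the most abundant nuclear gene at a mean of 198.4 FPKM.

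Of 9 target or feedback genes besides Axin2, 2 rose and 4 fell on differentiation at 21% oxygen, and 4 rose and 2 fell with hypoxia in differentiation medium. Myc rose at 21% oxygen (1.62 ± 0.18, adjusted p = 0.000242), as Axin2 did without the filter, and fell with hypoxia in differentiation medium (-2.05 ± 0.18, adjusted p = 8.35e-05; -1.76 and -2.34 without replicate A and B), with an interaction of -2.33 ± 0.25 (adjusted p = 0.000417; -2.05 and -2.62 without them). Wisp1 rose at 21% (0.54 ± 0.08, adjusted p = 0.00101) and at 2% (0.94 ± 0.08, adjusted p = 0.000532; 0.92 and 0.97 without replicate A and B), and Wisp2 fell with hypoxia in both media (-1.75 ± 0.17, adjusted p = 0.000503, and -1.74 ± 0.17, adjusted p = 0.000157; the latter -1.73 and -1.76 without replicate A and B). Ccnd1, the cyclin D1 gene, fell at 21% oxygen (-1.27 ± 0.29, adjusted p = 0.00746), a call lost without normoxic differentiation replicate B (adjusted p = 0.0556). Its change on differentiation at 2% was -0.14 ± 0.29 (adjusted p = 0.741), or 0.36 and -0.64 without hypoxic differentiation replicate A and B. Fosl1 rose with hypoxia in growth medium (1.50 ± 0.39, adjusted p = 0.0222), a call lost without any 1 of the 4 growth medium libraries (adjusted p from 0.0836 to 0.106). The targets moved both up and down in each of these comparisons.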

How the data were processed

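RNA-seq was made from Trizol RNA with a stranded total RNA protocol, per the labels' protocols, and the submitters' processing notes name STAR 2.5.1b and Cufflinks 2.2.1. The deposited gene values were taken as FPKM: they are not whole numbers and sum to 480018 to 534167 in a library. The genome build, annotation, use of strand and any scaling between libraries are not given in the sources used here for RNA-seq, so reads of overlapping genes may not be separated. The commonest ratio of values up to 0.5 FPKM to those of hypoxic differentiation replicate A gave a relative depth of 0.633 to 1. The step of that replicate per kilobase was read from 6 olfactory receptor genes shorter than 1000 bases. All values of fragments per kilobase hang on these 6 genes. If a step is 1 fragment, 1 fragment on a transcript of 1000 bases is worth 0.0552 to 0.0872 FPKM.

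Genes whose mean reached 1 FPKM in any group (12389 of the 17914 above 0) were tested on the log2(FPKM + 1) scale with limma 3.58.1 in R 4.3.3, fitting an intensity trend and 4 group means over all 8 libraries (4 residual and 2.61 prior degrees of freedom). Tests were two-sided with Benjamini-Hochberg adjustment over all genes tested. The test was also run on simulated data, with the same spread in every group and changes planted in normoxic differentiation medium alone. That run does not cover the larger spread between the libraries of hypoxic differentiation medium. Alternatives were a pseudocount of 0.1 FPKM, no filter, median-of-ratios and upper-quartile scaling, the compared libraries alone, robust moderation, library weights, a block for the letter, and each library left out. The 10 genes, the pathway list and the tests were chosen with earlier results of these data known. Other pathway genes are named by rule: per comparison the 4 largest rises and 4 largest falls among calls with a log2 change of at least 1 and at least 5 FPKM in the highest group, the most abundant gene of each role, and Fzd7, Ctnnb1, Lrp6, Ccnd1, Myc and Wisp1; values of a rule-named gene are given in the comparisons that the text needs. Of the 118 pathway symbols 116 are current in the GRCm38 names.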

Additional observations from a re-analysis of the deposited data

Results flagged for a closer look

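For 4 of the 8 tested Wnt genes the change from growth to differentiation medium differed between the oxygen levels by the interaction test of limma. Of all genes tested 54.1% passed the same test, so this count is not above the background. At 2% oxygen this was a change of medium without the myotube pattern. The difference in log2 change, 2% minus 21% oxygen, was 5.429 for Sfrp2, 2.327 for Dkk3, 1.301 for Sfrp1 and -0.618 for Lef1. For Sfrp2 the changes themselves were of opposite sign. With 2 libraries a group, no check for a single outlying library could be made within a group.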

How the results depend on the processing

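Of the 26 calls on Wnt genes, 19 held in every alternative run. Among values of single genes, 9 of the Wnt genes' alternatives and 6 of those of other named pathway genes changed sign. Median-of-ratios scaling gave 0.062 for Lef1 on differentiation at 21% oxygen and -0.053 for Wnt9a with hypoxia in differentiation medium, and upper-quartile scaling 0.015 for Dkk3 with hypoxia in growth medium. A pseudocount of 0.1 gave interactions of -0.12 for Wnt4 and 0.35 for Dkk2. The other changes of sign came from leaving out 1 library. On differentiation at 2% oxygen the range was -0.64 to 0.36 for Ccnd1 and -0.18 to 0.10 for Lrp6, both set by the hypoxic differentiation libraries. With hypoxia in growth medium Lrp6 ranged from -0.058 to 0.17 over the normoxic growth libraries. With hypoxia in differentiation medium, over the hypoxic differentiation libraries, Wnt9a ranged from -0.37 to 0.66, Fzd7 from -0.13 to 0.077 (0.064 without normoxic differentiation replicate A) and Ccnd1 from -0.046 to 0.95. The interaction ranged from -0.056 to 0.82 for Wnt4 and from -0.92 to 0.11 for Wnt9a over the same libraries, and from -0.20 to 0.031 for Dkk2 over the normoxic growth libraries. The cause was not tested.

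With the compared libraries alone, 4 Wnt genes and 15 other pathway genes passed on differentiation at 2% oxygen in place of 7 and 27, and 6 Wnt genes passed with hypoxia in growth medium in place of 3. Library weights gave 5 there. Leaving out 1 library gave 5 to 7 Wnt genes on differentiation at 21% oxygen, 4 to 8 at 2%, 2 to 6 and 5 to 7 with hypoxia in growth and differentiation medium, and 3 to 5 for the interaction. The other pathway genes ranged over 45 to 57, 12 to 34, 26 to 50, 36 to 49 and 34 to 51. Over all genes, 5073 passed on differentiation at 2% oxygen, 2867 with the compared libraries alone and 2501 to 6529 without 1 library. With hypoxia in growth medium 5135 passed, and 2997 to 6844 without 1 library. The fit to the compared libraries alone gives no value for the interaction, which needs all 8.

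With the replicate letter as a block, 6, 7, 2, 6 and 4 Wnt genes and 52, 23, 33, 43 and 47 other pathway genes passed, in the order differentiation at 21% and 2% oxygen, hypoxia in growth and differentiation medium, interaction. Of all genes tested, 64.0%, 35.9%, 37.4%, 63.0% and 50.6% passed in the same order. The Wnt gene lost was Sfrp1 with hypoxia in growth medium (adjusted p = 0.0574). No label says whether a letter marks a shared culture or day. The differences between A and B correlated across genes at -0.17 to 0.04 between groups, which cannot settle that. With 2 libraries a group and 4 residual degrees of freedom, the standard errors lean on the spread shared by all genes, and levels under about 0.2 FPKM rest on few fragments.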
